A study of Mus musculus with 8 samples.

Results

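A set of 40 genes that mark leukocytes and macrophages was followed in mouse kidney cortex after a change in dietary phosphate (Pi). The genes were chosen by name as cell type markers, with earlier results of these data known. Each was looked up by its symbol in the gene tables of all 8 libraries. Of the 40 genes, 39 were among the 17457 genes listed, and the T cell receptor gene Trbc2 was not analysed here. A gene was reported when it reached 0.1 FPKM (fragments per kilobase of transcript, scaled to the library total) in at least 4 libraries, and 38 of the 40 did so. Just inside that limit was Ms4a1, a B cell surface protein, with 0.04 to 0.15 FPKM and 4 libraries at the limit. Just outside was Cd163, a hemoglobin scavenger receptor of macrophages, with 0 to 0.16 FPKM and 1 library at the limit. The test of the diets took only genes that reached 0.5 FPKM in 4 or more libraries, which kept 30 of the 40 genes and 12383 of all genes.

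The study sequenced kidney cortex mRNA from mice of the C57BL/6J strain fed 1 of 2 diets for 3 days, with 4 libraries per diet. The diets were normal Pi, with a Pi content of 0.6%, and high Pi, with 1.2%, and no mouse carried an engineered allele. The methods give age-matched male mice between 8 and 16 weeks of age for the experiments, without the age of each mouse. The labels number the libraries 1 to 4 within each diet and do not tie mice of the 2 diets to each other.

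Leukocytes descend from blood-forming stem cells and share a set of proteins that other cells largely lack, among them the phosphatase encoded by Ptprc and the integrin chain encoded by Itgb2. The kidney holds a network of resident macrophages between its tubules and vessels, which depend on the receptor encoded by Csf1r, take up particles and immune complexes, and are a source of the complement protein C1q. T cells, NK cells, B cells and neutrophils are scarcer in healthy kidney and enter it from the blood.

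Depth, which FPKM does not give, was estimated at 12050000 to 12900000 fragments per library. High Pi replicate 1 differed most from the rest of its diet, at a root mean square distance of 0.299 on the log2 scale, against 0.138 to 0.212 for the other 7. Transcripts of adipocytes were present in 3 libraries: the adipocyte hormone gene Adipoq had 3.88 FPKM in normal Pi replicate 1, 6.49 in high Pi replicate 3 and 15.83 in high Pi replicate 4, against 0 to 0.13 in the other 5. The proximal tubule phosphate transporter Slc34a1, a marker of cortex, had 3529 to 4146 FPKM on the normal Pi diet. On the high Pi diet it had 2764 to 3163 FPKM, without overlap. Slc34a1 encodes Npt2a, which the study describes as lowered by FGF23, a hormone that rose in its control littermates on high Pi. It is thus not a marker independent of diet, and whether its fall reflects the content of the tissue pieces was not tested. All 8 libraries were kept. In a bulk tissue sample, more cells of a type and more RNA per cell cannot be told apart.

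Of the 30 leukocyte genes tested, 1 rose on the high Pi diet at an adjusted p under 0.05 by limma-trend, Arhgdib, and 0 fell. Among all 12383 genes tested, 0.178% rose and 0.121% fell at that threshold, 0.299% in either direction. At an unadjusted p under 0.05 there were 15 leukocyte genes, 14 of them higher and 1, S100a8, lower on the high Pi diet, against 9.35% of all genes (4.55% higher and 4.80% lower). The log2 fold change, taken throughout on log2(FPKM + 1) as the high Pi mean less the normal Pi mean, was above 0 in 28 of the 30 and in 45.7% of all genes. Its median was 0.27 over the 30 genes and -0.011 over all genes. In 4 of the 30, Arhgdib, Cd53, Fcer1g and Fcgr3, every library of the high Pi diet was above every library of the normal Pi diet, as in 2.41% of all genes. In 0 of the 30 every library was below (2.62% of all genes, and 5.02% in either direction). Because the genes were chosen with earlier results of these data known, these counts are given as a description. Adding 1 to the FPKM makes the log2 fold change understate the ratio of genes near or below 1 FPKM, so values with 0.1 added instead are given for several of them.

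**Figure D1:**
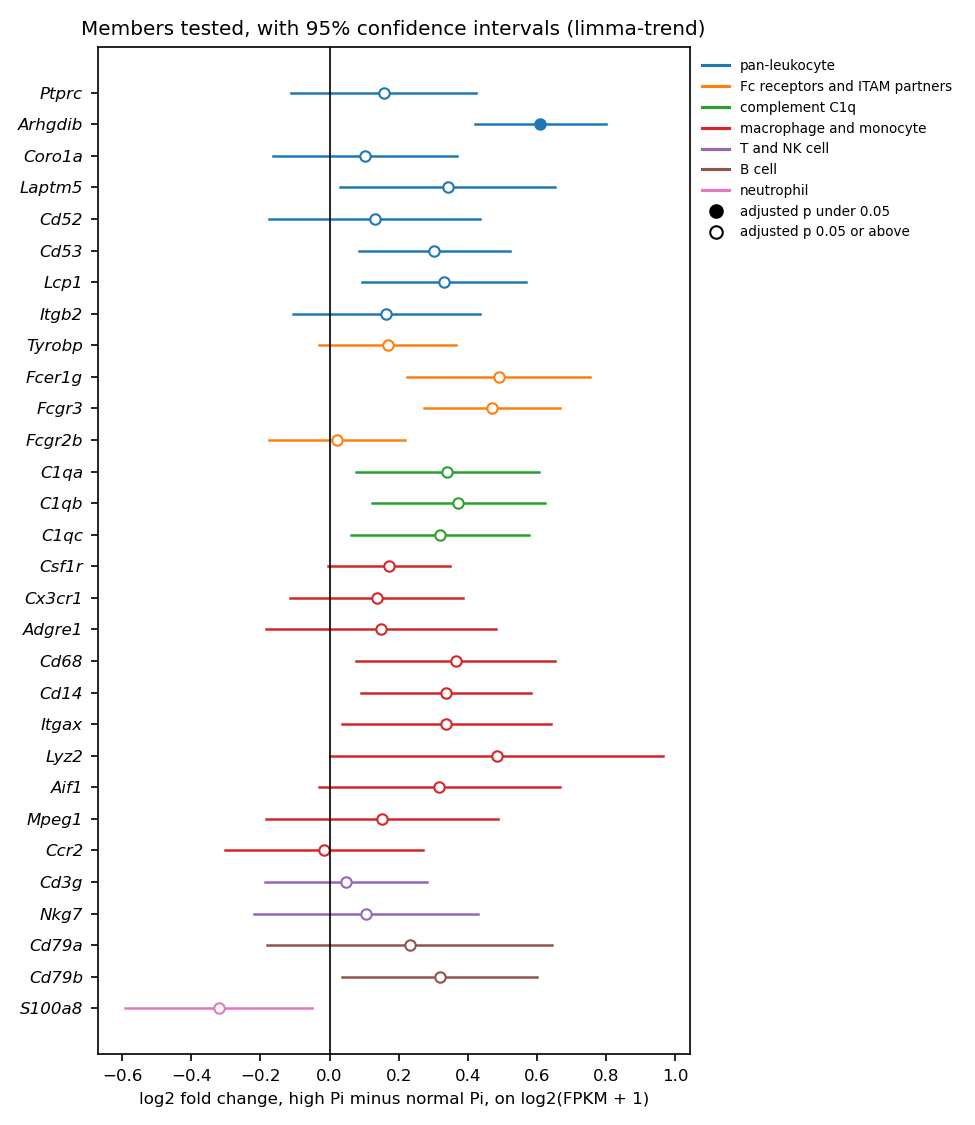
Log2 fold change of each of the 30 leukocyte genes tested, on log2(FPKM + 1) and positive where high Pi was higher, with limma-trend 95% confidence intervals (x axis) and the genes in rows coloured by role. The filled point, Arhgdib at 0.61, is the 1 gene at an adjusted p under 0.05, and the points of S100a8 and Ccr2 are the 2 to the left of 0.

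The DNA just before the start of the 4 genes whose diets did not overlap, and of C1qb, the complement gene of highest level, is shown because many promoters of myeloid genes carry purine-rich sites around the letters GGAA that the transcription factor encoded by Spi1 is known to bind. Each run is the 250 bases before the start of the transcript with the highest FPKM, 5′ to 3′, from RefSeq on GRCm38.p6. Capitals mark any match on either strand to the letters GAGGAAGT or to one of 3 shorter strings that lie within it. The longest of these is AGGAAGT. The other two are the start of the full string, GAGGAA, and its end, GGAAGT, and all of them overlap each other.
Arhgdib, chr6:136941900-136942149, minus strand: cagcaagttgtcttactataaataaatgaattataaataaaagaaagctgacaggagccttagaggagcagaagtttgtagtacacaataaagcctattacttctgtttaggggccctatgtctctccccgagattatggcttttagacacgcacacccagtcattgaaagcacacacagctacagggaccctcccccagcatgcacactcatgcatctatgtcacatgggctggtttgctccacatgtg
Cd53, chr3:106790150-106790399, minus strand: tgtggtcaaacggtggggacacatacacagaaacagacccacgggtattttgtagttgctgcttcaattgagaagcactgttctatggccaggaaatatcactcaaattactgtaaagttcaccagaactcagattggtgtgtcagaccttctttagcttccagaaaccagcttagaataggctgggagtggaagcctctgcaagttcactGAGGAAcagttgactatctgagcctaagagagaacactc
Fcer1g, chr1:171234350-171234599, minus strand: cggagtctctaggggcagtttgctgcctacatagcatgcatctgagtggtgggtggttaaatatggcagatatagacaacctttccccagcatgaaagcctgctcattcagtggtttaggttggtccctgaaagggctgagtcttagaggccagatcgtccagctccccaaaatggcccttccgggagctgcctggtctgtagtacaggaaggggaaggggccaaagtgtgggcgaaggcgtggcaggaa
Fcgr3, chr1:171059404-171059653, minus strand: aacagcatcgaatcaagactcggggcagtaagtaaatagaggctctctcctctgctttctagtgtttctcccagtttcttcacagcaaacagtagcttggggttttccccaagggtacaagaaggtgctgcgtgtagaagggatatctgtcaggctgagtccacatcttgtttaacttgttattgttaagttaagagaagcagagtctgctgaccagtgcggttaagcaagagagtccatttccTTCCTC
C1qb, chr4:136886201-136886450, minus strand: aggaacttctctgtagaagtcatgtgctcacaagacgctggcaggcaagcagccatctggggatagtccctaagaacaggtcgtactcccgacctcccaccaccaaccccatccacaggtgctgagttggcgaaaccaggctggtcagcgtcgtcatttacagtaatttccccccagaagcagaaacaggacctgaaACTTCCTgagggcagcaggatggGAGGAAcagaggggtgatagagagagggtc
The windows shown for Arhgdib and Fcer1g held 0 matches, that of Cd53 held GAGGAA, that of Fcgr3 held the same letters on the other strand, and that of C1qb held GAGGAA as well as AGGAAGT on the other strand. A window was found for 29 of the 40 genes. Over all windows of a gene, the letters AGGAAGT on either strand occurred in 9 of these 29 genes (31%), among them Ptprc, C1qc, Lyz2 and another start of Arhgdib, against 8.8% of the 27025 genes with a window. GAGGAA occurred in 16 of 29 (55.2%) against 25.9%, GGAAGT in 14 of 29 (48.3%) against 22.2%, and GAGGAAGT in 2 of 29 (6.9%) against 2.79%. A match describes letters in a window, and binding was not measured.

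The pan-leukocyte genes comprised Ptprc, Arhgdib, Coro1a, Laptm5, Cd52, Cd53, Lcp1 and Itgb2, all 8 of which were tested. Arhgdib alone rose at the adjusted threshold, 4 of the 8 had an unadjusted p under 0.05, and the log2 fold change was above 0 in all 8, with a median of 0.23. Arhgdib (gene ID 11857; chr6:136923655-136941899 on GRCm38.p6) encodes a cytosolic protein, abundant in blood cells, that holds small GTPases in their inactive form. Which cells of the cortex its transcripts came from was not tested. Its FPKM was 16.85, 18.14, 19.12 and 16.03 in normal Pi replicates 1 to 4 and 27.84, 24.58, 31.24 and 25.61 in high Pi replicates 1 to 4. The lowest library on the high Pi diet was above the highest on the normal Pi diet. The means were 17.5 ± 1.37 FPKM (SD, n = 4) and 27.3 ± 2.95 FPKM (SD, n = 4), a ratio of 1.56. The log2 fold change was 0.61 (standard error [SE] 0.0869, 95% confidence interval 0.42 to 0.80, adjusted p = 0.0227 by limma-trend), and the exact two-sided permutation test gave p = 0.0286 (n = 4 per diet), the smallest that 4 libraries against 4 allow. The call was lost with no filter on low values (adjusted p = 0.0712) and on leaving out normal Pi replicate 1 (0.0637), 2 (0.0640), 3 (0.0609) or 4 (0.0770) or high Pi replicate 4 (0.0555), with a log2 fold change of 0.54 to 0.66 over the 8 fits that left out a library. Without the 3 libraries that held adipocyte transcripts it was 0.54 (adjusted p = 0.239 by limma-trend).

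The Arhgdib value is a sum over 7 listed transcripts. The most abundant made up 38.5% of it, with a mean of 6.08 FPKM on the normal Pi diet and 11.2 FPKM on the high Pi diet, and the next made up 34.2%, with 6.40 and 8.92 FPKM. The libraries of the 2 diets overlapped for each transcript taken alone, and how reads of one gene were divided among its transcripts is uncertain. The widely expressed relative Arhgdia had 234 to 260 FPKM on the normal Pi diet and 256 to 274 FPKM on the high Pi diet (log2 fold change 0.071, adjusted p = 0.793 by limma-trend). The diets overlapped for Arhgdia.

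Cd53 (gene ID 12508; chr3:106758861-106790149) encodes a tetraspanin of the leukocyte membrane. Its FPKM was 0.96, 0.67, 0.66 and 0.74 in normal Pi replicates 1 to 4 and 1.48, 0.97, 1.2 and 1.04 in high Pi replicates 1 to 4. The diets were separated by only 0.01 FPKM, the step to which the values are rounded, between normal Pi replicate 1 and high Pi replicate 2. This gave a log2 fold change of 0.30 (SE 0.0995, adjusted p = 0.296 by limma-trend), or 0.57 with a pseudocount of 0.1 (adjusted p = 0.302), where the ratio of the means was 1.55. Here an estimated 21.0 fragments per library gave a counting error of 21.8%. Cd52, a small anchored glycoprotein of lymphocytes and the gene of highest level in this role, had 27.17, 25.15, 24.6 and 22.98 FPKM on the normal Pi diet and 29.66, 18.86, 31.36 and 31.97 FPKM on the high Pi diet. Of the high Pi libraries, 3 were above all 4 normal Pi libraries and replicate 2 was below all of them. The Cd52 log2 fold change was 0.13 (SE 0.140, adjusted p = 0.855 by limma-trend). It was 0.30 without high Pi replicate 2, 0.068 without high Pi replicate 3 and 0.059 without high Pi replicate 4, and it turned to -0.032 without the 3 libraries that held adipocyte transcripts.

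The other pan-leukocyte genes did not pass the adjusted threshold, and their libraries overlapped between diets. Ptprc ranged from 0.81 to 1.38 FPKM on the normal Pi diet and from 0.99 to 1.64 FPKM on the high Pi diet, which gave 0.16 as the log2 fold change. Laptm5, which encodes a lysosomal membrane protein of blood cells, had a log2 fold change of 0.34 and was highest in high Pi replicate 1, at 17.22 FPKM against 8.68 to 11.92 FPKM in the other 7 libraries. Lcp1, whose product bundles actin filaments, had 0.33. Itgb2 had 0.16 and Coro1a, which encodes an actin-binding protein of leukocytes, had 0.10.

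**Figure D2:**
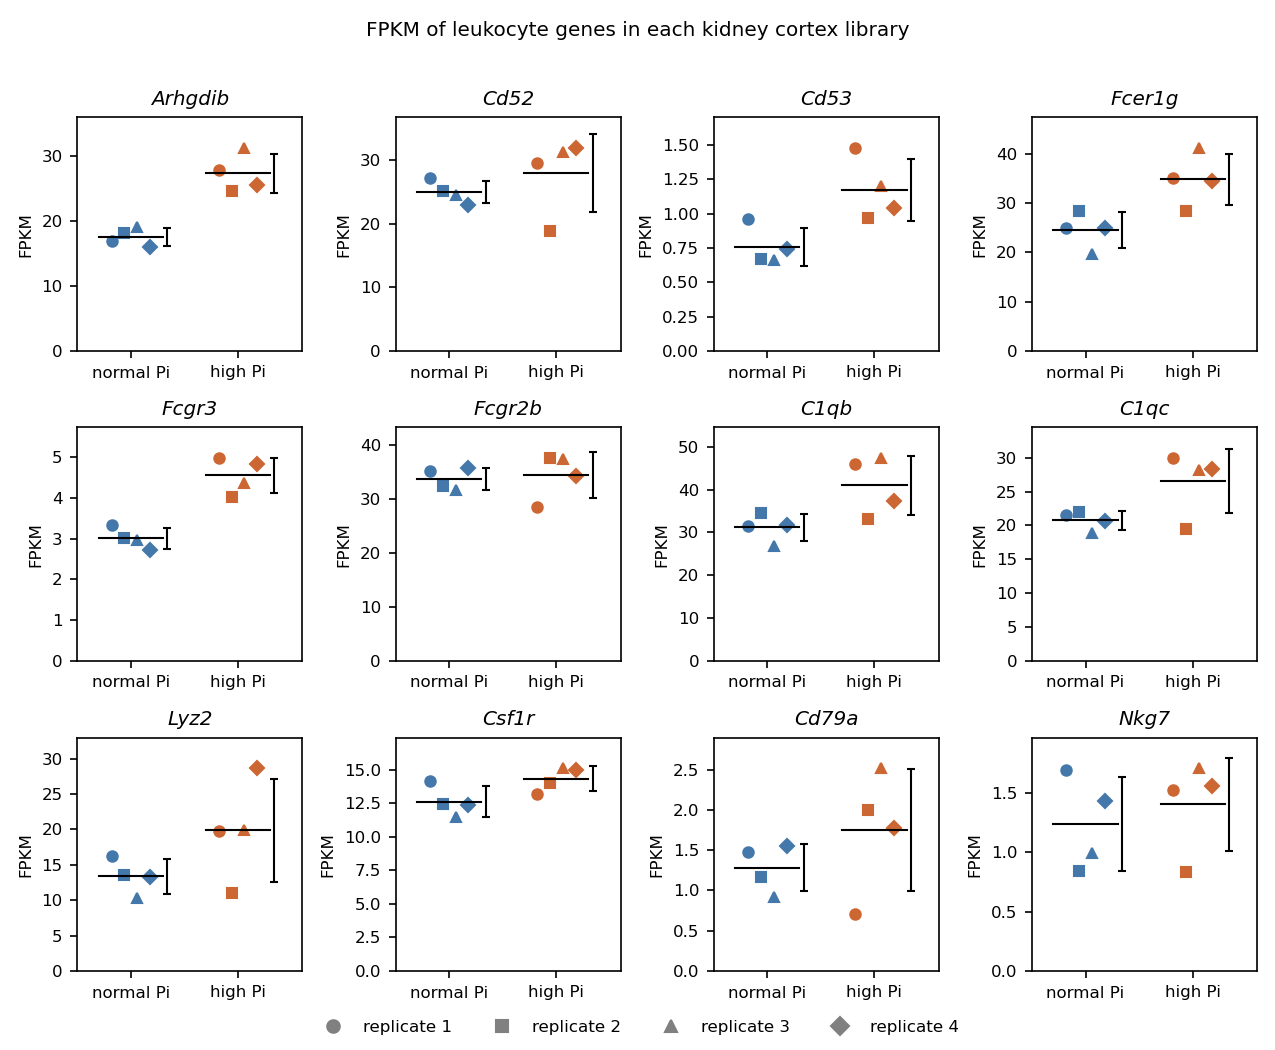
FPKM (y axes, from 0) of 12 leukocyte genes in each library, by diet (x axes); symbols mark the replicate number, horizontal lines the mean and error bars the SD (n = 4). The high Pi libraries of Arhgdib (24.58 to 31.24), Cd53, Fcer1g and Fcgr3 all lie above the normal Pi libraries, while high Pi replicate 2, the square, lies lowest of its diet for Cd52, C1qb, C1qc and Lyz2.

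Fc receptors bind the constant part of antibodies. The activating receptor encoded by Fcgr3 signals through the partner chain encoded by Fcer1g, which carries an ITAM, a tyrosine motif that recruits kinases, and the receptor encoded by Fcgr2b carries an inhibitory motif in its own tail. Tyrobp encodes another ITAM partner chain, used by Trem2 and other receptors of myeloid and NK cells. Of the 5 genes, 4 were tested, 0 passed the adjusted threshold of limma-trend and 2, Fcer1g and Fcgr3, had an unadjusted p under 0.05.

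Fcgr3 (gene ID 14131; chr1:171051169-171065915) had 3.33, 3.01, 2.97 and 2.71 FPKM in normal Pi replicates 1 to 4 and 4.98, 4.03, 4.37 and 4.83 FPKM in high Pi replicates 1 to 4. The diets did not overlap. The means were 3.01 ± 0.254 FPKM (SD, n = 4) and 4.55 ± 0.434 FPKM (SD, n = 4), with a log2 fold change of 0.47 (SE 0.0906, adjusted p = 0.0647 by limma-trend). It passed the adjusted threshold under quantile normalization (0.0419), median-of-ratios scaling (0.0380), library weights (0.00714) and without high Pi replicate 1 (0.0253), out of 16 alternatives with adjusted p from 0.00714 to 0.430. A single transcript made up 95.2% of the Fcgr3 value and was also separated between diets, at 2.64 ± 0.324 and 4.55 ± 0.434 FPKM (SD, n = 4 each).

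Fcer1g (gene ID 14127; chr1:171229572-171234349) had 25.05, 28.47, 19.63 and 25.05 FPKM in normal Pi replicates 1 to 4 and 35.21, 28.48, 41.22 and 34.56 FPKM in high Pi replicates 1 to 4. Replicate 2 was the highest library of the normal Pi diet and the lowest of the high Pi diet, and these 2 libraries differed by 0.01 FPKM. In log2 fold change Fcer1g stood at 0.49 (SE 0.121, 95% confidence interval 0.22 to 0.75, adjusted p = 0.153 by limma-trend). With an estimated 249.6 fragments per library, the counting error of Fcer1g was 6.33%. Tyrobp, the other partner chain, ranged from 13.95 to 17.27 FPKM on the normal Pi diet and from 15.01 to 18.87 FPKM on the high Pi diet (log2 fold change 0.17, adjusted p = 0.626 by limma-trend).

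Fcgr2b (gene ID 14130; chr1:170960558-170976071), which lies near Fcgr3, had 35.22, 32.35, 31.66 and 35.74 FPKM on the normal Pi diet and 28.51, 37.57, 37.37 and 34.15 FPKM on the high Pi diet. The libraries were intermixed, and high Pi replicate 1 was the lowest of all 8. Its log2 fold change was 0.021 (95% confidence interval -0.18 to 0.22, adjusted p = 0.980 by limma-trend), and it turned negative, to -0.020, without the 3 libraries that held adipocyte transcripts. Fcgr2b is also made by B cells and by some endothelial cells. Trem2, a lipid-binding receptor of macrophages, had 0.15 to 0.21 FPKM on the normal Pi diet and 0.15 to 0.35 FPKM on the high Pi diet and was not tested.

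Taken within a library, the ratio of Fcgr3 to Fcgr2b was between 0.0758 and 0.0946 on the normal Pi diet and between 0.107 and 0.175 on the high Pi diet, with no overlap. The ratio of Fcer1g to Tyrobp was 1.25 to 1.80 and 1.83 to 2.19, also without overlap. The ratio of Arhgdib to the geometric mean of the other 7 pan-leukocyte genes was 3.79 to 5.48 with normal Pi and 4.71 to 6.71 on the high Pi diet and overlapped. The 3 ratios were chosen after the values were seen and are given as a description, with no test.

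**Figure D3:**
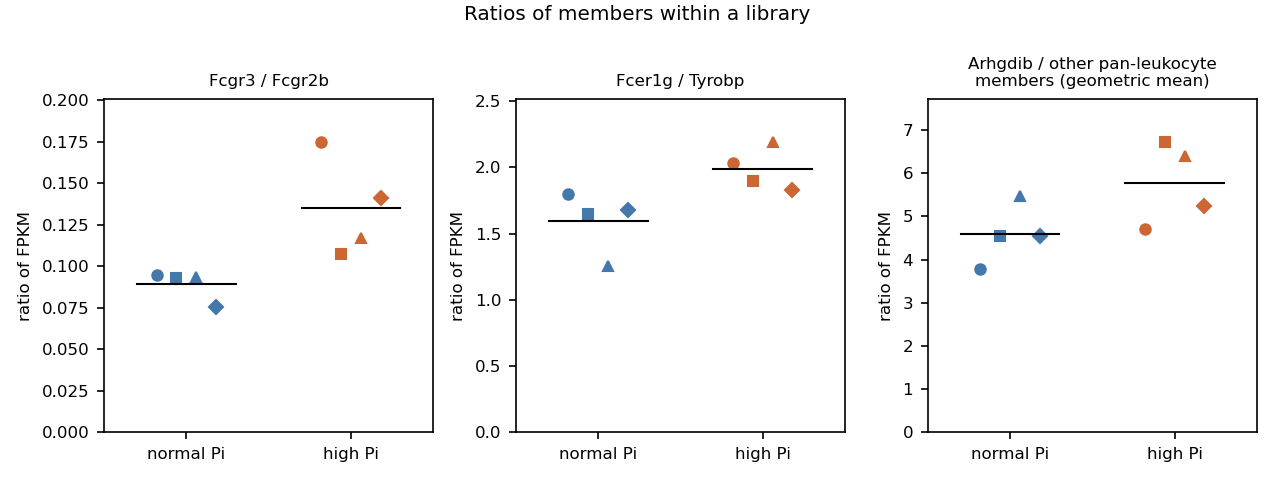
Ratios of FPKM within each library (y axes, from 0) for Fcgr3 over Fcgr2b, Fcer1g over Tyrobp and Arhgdib over the geometric mean of the other 7 pan-leukocyte genes, by diet (x axes), with lines at the mean and the same replicate symbols as in the plot of FPKM by library. The first pair of ratios is separated between diets, at up to 0.0946 against at least 0.107 and up to 1.80 against at least 1.83, and the third overlaps.

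C1q, the recognition molecule of the classical complement pathway, is built from 3 chains encoded side by side on chromosome 4. All 3 genes were tested, 0 passed the adjusted threshold of limma-trend, and all 3 had an unadjusted p under 0.05 with a log2 fold change between 0.32 and 0.37. C1qb (gene ID 12260; chr4:136880126-136886200) had 31.57, 34.56, 26.87 and 31.83 FPKM in normal Pi replicates 1 to 4 and 45.98, 33.12, 47.39 and 37.41 FPKM in high Pi replicates 1 to 4. C1qc (gene ID 12262; chr4:136889801-136892936) had 21.57, 22.05, 18.85 and 20.73 FPKM and 29.97, 19.53, 28.22 and 28.3 FPKM. For both genes 3 high Pi libraries were above all 4 normal Pi libraries, and high Pi replicate 2 was within the normal Pi range.

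The C1qb means were 31.2 ± 3.19 FPKM (SD, n = 4) and 41.0 ± 6.85 FPKM (SD, n = 4), a log2 fold change of 0.37 (SE 0.114, adjusted p = 0.258 by limma-trend), and its counting error was 4.52%. For C1qc the log2 fold change was 0.32 (SE 0.118, adjusted p = 0.369 by limma-trend). C1qa (chr4:136895916-136898844) went from a range of 11.8 to 15.56 FPKM to one of 13.58 to 20.21 FPKM, a log2 fold change of 0.34 (adjusted p = 0.345 by limma-trend). High Pi replicate 2 was the lowest of its diet for each of the 3 chains.

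The macrophage and monocyte genes numbered 13, of which 12 were reported and 10 were tested. None of the 10 passed limma-trend's adjusted threshold (count 0), 4 had an unadjusted p under 0.05 (Cd68, Cd14, Itgax and Lyz2), and 9 had a log2 fold change above 0, with a median of 0.24. Lyz2 (gene ID 17105; chr10:117277541-117282272) encodes the lysozyme of macrophages and neutrophils and had 16.26, 13.6, 10.33 and 13.21 FPKM in normal Pi replicates 1 to 4 and 19.82, 10.99, 19.9 and 28.69 FPKM in high Pi replicates 1 to 4. High Pi replicate 4 was the highest library and high Pi replicate 2 the second lowest of all 8. The log2 fold change was 0.48 with the widest interval of the 30 genes, 0.0023 to 0.96 (SE 0.220, adjusted p = 0.527 by limma-trend), against a counting error of 6.05%, and it was 0.73 without high Pi replicate 2 (adjusted p = 0.109), 0.29 without high Pi replicate 4 (0.851) and 0.25 without the 3 libraries that held adipocyte transcripts.

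Csf1r (gene ID 12978; chr18:61105572-61131139), the receptor for the growth factors that maintain macrophages, had 14.19, 12.44, 11.49 and 12.4 FPKM on the normal Pi diet and 13.16, 14.03, 15.14 and 14.99 FPKM on the high Pi diet. The diets overlapped through normal Pi replicate 1. For Csf1r the log2 fold change was 0.17 (SE 0.0812, 95% confidence interval -0.0060 to 0.35, adjusted p = 0.557 by limma-trend). A transcript of Csf1r that made up 32.6% of its value was separated between diets, with 1.67 to 3.44 FPKM on the normal Pi diet and 4.09 to 11.12 FPKM on the high Pi diet (p = 0.0286 by the exact two-sided permutation test, n = 4 per diet, the smallest possible). Another that made up 41.0% went the other way in its means, from 7.18 ± 1.06 to 3.87 ± 2.61 FPKM (SD, n = 4), and was listed at 0 in high Pi replicate 2, where the former was at its highest. Both are predicted models, and reads of one gene can be assigned to either.

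Among the other macrophage genes, Cd68, which encodes a lysosomal glycoprotein, had a log2 fold change of 0.36, Cd14, the co-receptor for bacterial lipopolysaccharide, 0.34, and Itgax, an integrin chain of dendritic cells and some macrophages, 0.34. Their limma-trend adjusted p-values were 0.355, 0.302 and 0.439. Aif1, a calcium-binding protein of macrophages, had 0.32, and Cx3cr1, Adgre1 and Mpeg1 had 0.14, 0.15 and 0.15. Ccr2, the chemokine receptor that marks monocytes arriving from the blood, had 0.49 to 1.19 FPKM on the normal Pi diet and 0.65 to 1.14 FPKM on the high Pi diet, and its log2 fold change was -0.017 (95% confidence interval -0.30 to 0.27). Mrc1, the mannose receptor, and Itgam, an integrin chain of myeloid cells, were below the level for testing, with 0.22 to 0.67 and 0.21 to 0.52 FPKM over the 8 libraries.

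**Figure D4:**
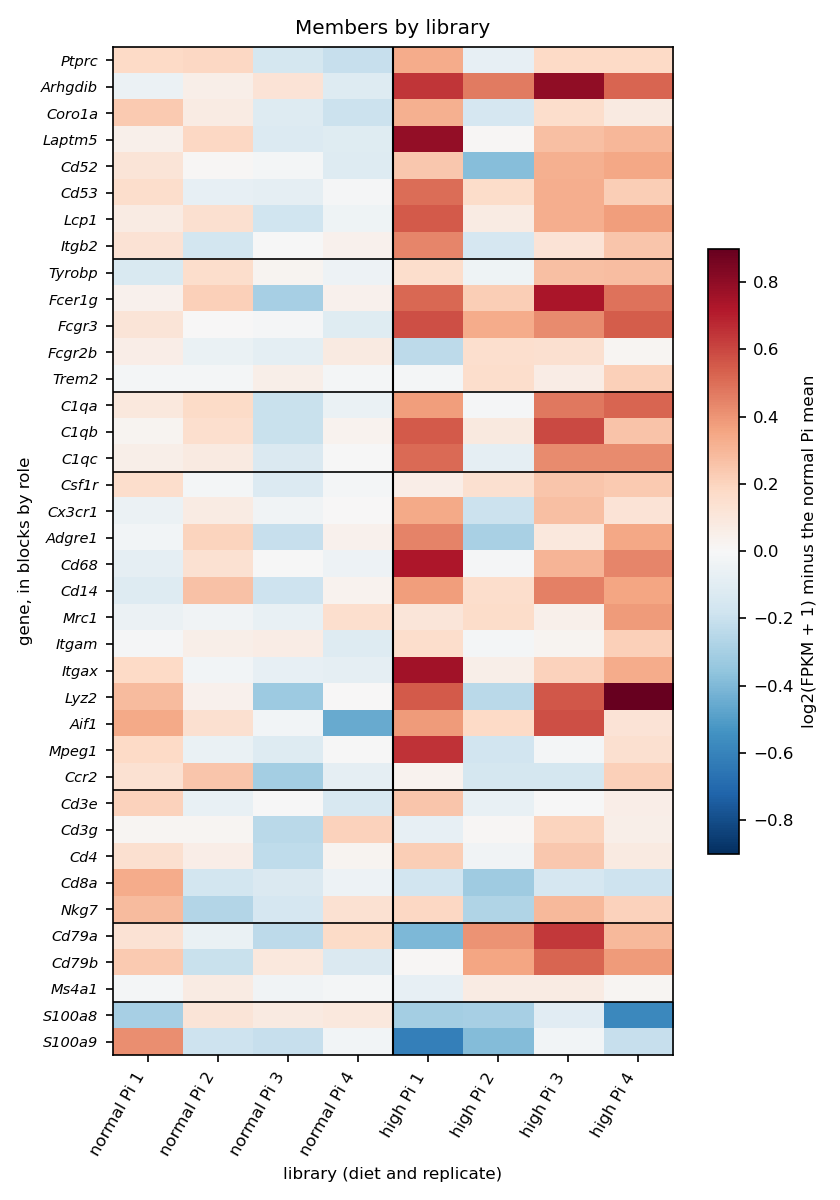
Heat map of the 38 reported leukocyte genes (rows, in blocks by role) in the 8 libraries (columns, normal Pi left of the line and high Pi right of it), coloured by log2(FPKM + 1) minus the normal Pi mean of the gene. Red predominates in high Pi replicates 1, 3 and 4 in the upper blocks, while replicate 2 mixes red and blue. In FPKM, high Pi replicate 2 was above the normal Pi mean for 14 of the 30 tested genes. The S100a8 row, just above the S100a9 row at the bottom, is blue in all 4 high Pi libraries.

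T cell, NK cell and B cell genes were near the lower end of detection. Of 6 T and NK cell genes, 2 were tested, 0 passed limma-trend's adjusted threshold and 0 had an unadjusted p under 0.05. Nkg7, a granule protein of cytotoxic cells, had 1.69, 0.84, 0.99 and 1.43 FPKM on the normal Pi diet and 1.52, 0.83, 1.71 and 1.56 FPKM on the high Pi diet. Cd3g, a chain of the T cell receptor complex, had 0.57, 0.57, 0.31 and 0.79 FPKM and 0.47, 0.56, 0.78 and 0.61 FPKM. Both genes were intermixed between diets, with log2 fold changes of 0.10 (95% confidence interval -0.22 to 0.43) for Nkg7 and 0.046 (-0.19 to 0.28) for Cd3g, or 0.17 and 0.13 with a pseudocount of 0.1. Over the 8 fits that left out a library, Nkg7 ranged from 0.016 (without normal Pi replicate 2) to 0.23 (without high Pi replicate 2) and Cd3g from -0.035 (without normal Pi replicate 3) to 0.12 (without normal Pi replicate 4). With 7.41 estimated fragments per library, Cd3g had a counting error of 36.7%, and small changes were not detectable at this depth. Cd3e, Cd4 and Cd8a, which mark T cells and their helper and cytotoxic subsets, stayed below the level for testing, with 0.05 to 0.38, 0.09 to 0.51 and 0.15 to 0.81 FPKM.

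Cd79a and Cd79b encode the signalling pair of the B cell receptor. Cd79a had 1.48, 1.17, 0.92 and 1.55 FPKM on the normal Pi diet and 0.71, 2.0, 2.52 and 1.77 FPKM on the high Pi diet. Cd79b had 1.07, 0.53, 0.88 and 0.61 FPKM and 0.77, 1.25, 1.53 and 1.3 FPKM. For both genes high Pi replicates 2, 3 and 4 were above all normal Pi libraries and high Pi replicate 1 was not. Log2 fold changes were 0.23 for Cd79a (adjusted p = 0.770 by limma-trend) and 0.32 for Cd79b (0.436). Leaving out a library moved Cd79a from 0.096 (without high Pi replicate 3) to 0.44 (without high Pi replicate 1), and it was 0.043 without the 3 libraries that held adipocyte transcripts. Over its 16 alternatives the adjusted p of Cd79b ran from 0.0436 (library weights) to 0.937 (without the libraries that held adipocyte transcripts), and its log2 fold change was 0.60 with a pseudocount of 0.1.

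S100a8 and S100a9 encode the paired calcium-binding proteins that fill the cytosol of neutrophils, and they lie near each other on chromosome 3. S100a8 (gene ID 20201; chr3:90669071-90670034) had 0.5, 1.0, 0.95 and 0.97 FPKM in normal Pi replicates 1 to 4 and 0.49, 0.5, 0.72 and 0.23 FPKM in high Pi replicates 1 to 4. Without normal Pi replicate 1, which was at the level of the high Pi libraries, the diets did not overlap. Its log2 fold change was -0.32 (SE 0.125, adjusted p = 0.404 by limma-trend), or -0.74 with a pseudocount of 0.1 (adjusted p = 0.427), where the ratio of the means was 0.567. For this gene an estimated 4.05 fragments per library gave a counting error of 49.7%. S100a9 had 1.05, 0.35, 0.33 and 0.51 FPKM on the normal Pi diet, was listed at 0 in high Pi replicate 1 and had 0.17, 0.51 and 0.33 FPKM in high Pi replicates 2 to 4. The S100a9 diets overlapped, and the gene was below the level for testing.

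The libraries of the high Pi diet were not alike in these genes. Over the 30 genes, the median ratio to the normal Pi mean was 1.08, 1.06, 0.898 and 0.979 in normal Pi replicates 1 to 4 and 1.44, 0.996, 1.34 and 1.32 in high Pi replicates 1 to 4. High Pi replicate 2 thus lay within the normal Pi range, and it was the lowest of its diet for 23 of the 30 genes. High Pi replicate 1 was the highest of all 8 libraries for 13 genes, replicate 3 for 9 and replicate 4 for 4. Without high Pi replicate 2, 16 of the 30 genes had every high Pi library above every normal Pi library, against 4.49% of all genes in the same 7 libraries. Without high Pi replicate 1 there were 6, against 4.97% of all genes, and then the median log2 fold change of the 30 genes was 0.20. Leaving out normal Pi replicate 1, 2, 3 or 4 or high Pi replicate 3 or 4 gave 6, 6, 4, 4, 4 and 4 such genes, against 4.64%, 4.64%, 3.00%, 3.24%, 3.65% and 3.67% of all genes. Without the 3 libraries that held adipocyte transcripts there were 7, against 11.4% of all genes, the median was 0.22 and 25 of the 30 genes were above 0.

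Markers of other cell types also differed between the libraries. Of 6 fibroblast and mural cell markers, all 6 had a log2 fold change above 0 and 0 passed limma-trend's adjusted threshold (2 at an unadjusted p under 0.05). Their summed FPKM was 31.2 to 42.5 with normal Pi and 33.4 to 63.8 on the high Pi diet, and their median ratio to the normal Pi mean was 1.61, 0.997, 1.45 and 1.36 in high Pi replicates 1 to 4. Of 10 endothelial markers 0 passed (3 unadjusted, all higher), and 9 had a log2 fold change above 0, with a median of 0.14. Their summed FPKM was 283.6 to 333.7 with normal Pi and 321.6 to 400.9 on the high Pi diet. High Pi replicate 1 was the highest library for 9 of the 10. Of 7 proximal tubule markers 0 passed (3 unadjusted, all lower). Their summed FPKM was 4797 to 5429 with normal Pi and 3866 to 4298 on the high Pi diet. Most of that sum was Slc34a1, not a marker independent of diet, with a mean of 3434 FPKM over the 8 libraries. Slc34a1 and Slc5a2 were the 2 with every high Pi library below every normal Pi library, as in 2.62% of all genes. Of the 7, 5 had a log2 fold change below 0, and Slc22a6 (0.079) and Slc7a13 (0.071) were above 0. Of 4 adipocyte markers 2 were tested and 0 passed (1 unadjusted), with a summed FPKM of 33.9 to 101.6 and 43.6 to 294.8. Adipoq was listed at 0 in normal Pi replicates 2 to 4 and high Pi replicate 2, and Plin1 in normal Pi replicates 2 to 4 and high Pi replicate 1. No defining marker of fibroblasts, endothelium or proximal tubule was at 0 in any library. Whether the makeup of the tissue pieces had a part in the values of the leukocyte genes was not tested.

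**Figure D5:**
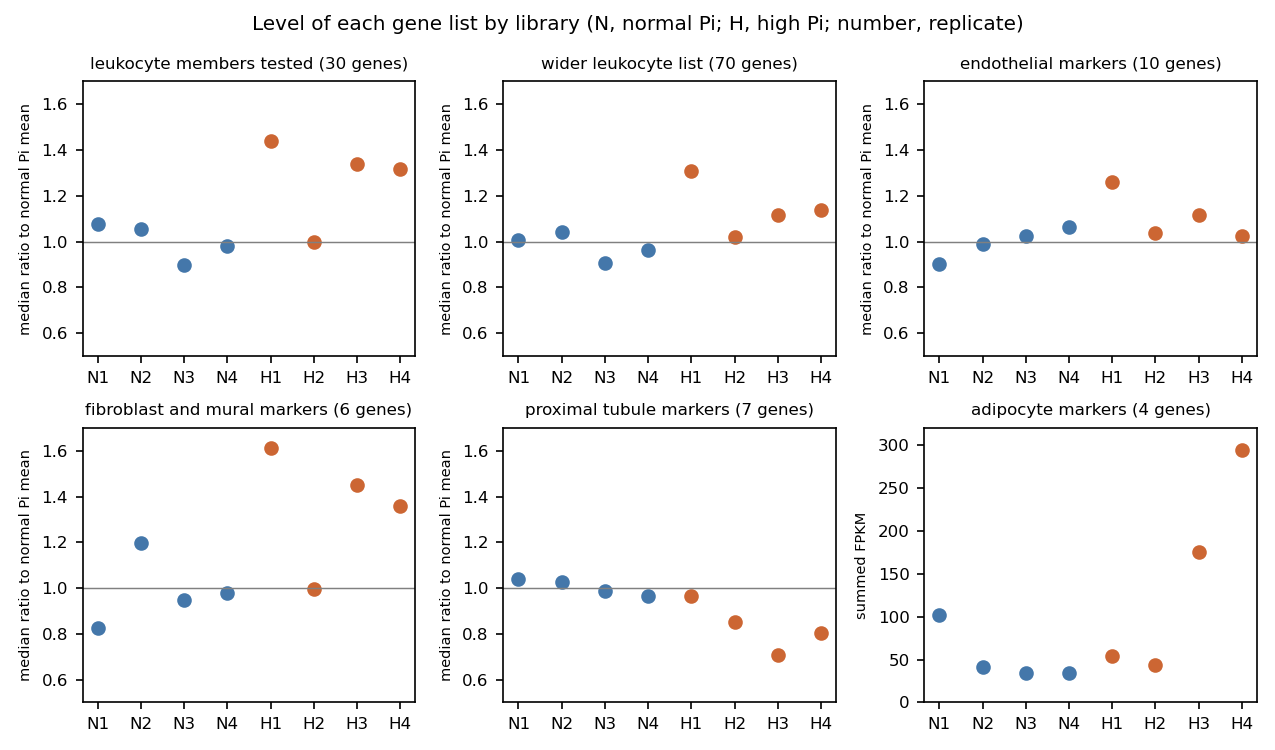
Level of the leukocyte genes and of other marker lists in each library (x axes; N, normal Pi; H, high Pi; number, replicate). The y axes give the median ratio to the normal Pi mean on a range that does not start at 0, or, for adipocyte markers, the summed FPKM; H2 lies at 0.996 for the 30 leukocyte genes and 0.997 for fibroblast markers, while H1, H3 and H4 lie at 1.32 or more and 1.36 or more.

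A wider list of 128 other leukocyte genes was read in the same fit, of which 119 were in the files, 102 were reported and 70 were tested. Of the 70, 0 passed the adjusted threshold of limma-trend in either direction (2, Cd48 and Cxcl12, with library weights, where 3.76% of all genes passed, and 2 without high Pi replicate 1, where 3.40% did), 13 had an unadjusted p under 0.05, all of them higher on the high Pi diet, and 60 had a log2 fold change above 0, with a median of 0.13. In 3 of them, Cd48, Ptpn6 and Cxcl12, every high Pi library was above every normal Pi library, as in 2.41% of all genes. The 6 with the smallest unadjusted p are named here. Cxcl12, a chemokine made mainly by stromal cells, had 32.23, 26.95, 30.33 and 30.0 FPKM on the normal Pi diet and 33.9, 38.71, 48.74 and 41.17 FPKM on the high Pi diet (log2 fold change 0.42, adjusted p = 0.136 by limma-trend). Cd48, a surface protein of most leukocytes, had 1.23, 0.94, 1.22 and 0.84 FPKM and 2.09, 1.39, 1.66 and 1.88 FPKM (0.42, adjusted p = 0.163 by limma-trend). High Pi replicate 1 was the lowest of its diet for Cxcl12 and the highest for Cd48. Thy1, found on T cells and also on fibroblasts, had a log2 fold change of 0.44 (0.230), the chemokine gene Ccl4 0.50 (0.250), Ly86, the partner of a toll-like receptor relative on B cells and macrophages, 0.32 (0.375), and the chemokine gene Ccl6 0.32 (0.395).

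By role, the wider list held 20 genes of leukocyte adhesion, cytoskeleton and oxidase, of which 17 were tested, 3 had an unadjusted p under 0.05 and 16 were above 0, with a median log2 fold change of 0.13. Of 22 colony-stimulating factors, chemokines and cytokines, 15 were tested, 6 had an unadjusted p under 0.05 and the median was 0.18. The growth factors that act on the Csf1r receptor, Csf1 and Il34, had log2 fold changes of 0.15 and 0.10, and Cx3cl1, the ligand of the Cx3cr1 receptor, had 0.24 (adjusted p = 0.445 by limma-trend). Of 11 ITAM kinases and adaptors 8 were tested, 1 had an unadjusted p under 0.05 and the median was 0.11. Spi1, which encodes the transcription factor of the sites searched above, had 4.04, 4.98, 3.19 and 3.95 FPKM on the normal Pi diet and 5.84, 4.28, 6.54 and 4.52 FPKM on the high Pi diet, for a log2 fold change of 0.32 (adjusted p = 0.479 by limma-trend), with overlap between the diets. Of 26 further macrophage and dendritic cell genes 14 were tested, 1 had an unadjusted p under 0.05 and 12 were above 0. Among further B and plasma cell genes and further neutrophil and mast cell genes, 0 of 6 and 0 of 11 reached the level for testing.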

How the data were processed

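RNA of kidney cortex was extracted by the authors with an RNeasy kit and sequenced on the BGI DNBSEQ platform. The submitters' processing notes name HISAT, Bowtie2 and GRCm38.p6; versions, the counting step and the gene models are not given in the sources used here. The authors deposited FPKM per gene and per transcript, scaled to the library total and rounded to 0.01 FPKM. Read counts were not used here, so the count test of the study could not be fitted. Depth was estimated from the step between low FPKM values of 2638 single-transcript genes, at 12050000 to 12900000 fragments with full transcript length and 13650000 to 14900000 with 150 bases subtracted, and fragments per gene and counting errors follow from the former. They cover counting error only.

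FPKM were taken as log2(FPKM + 1). Genes that reached 0.5 FPKM in 4 or more libraries entered a limma-trend fit (limma 3.58.1, R 4.3.3, two-sided) of high Pi against normal Pi. P-values were adjusted by Benjamini and Hochberg's method over all 12383 genes, and the threshold was 0.05. For exact permutation tests the 8 libraries were assigned to diets in all 70 ways. Nothing in the labels says more than that each library is a separate sample, so p-values measure the spread between these libraries.

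The leukocyte genes, the wider list and the marker lists were chosen with earlier results of these data known. Values in every library are given for genes past the adjusted threshold, genes whose diets did not overlap and the 2 of highest mean in each role, and, of the wider list, the 6 with the smallest p. Others named with such values (Spi1) and the 3 ratios were chosen after values were seen. The 23 symbols stored as dates were restored from gene IDs, and 17346 IDs matched RefSeq. Coordinates and promoter windows are RefSeq's on GRCm38.p6; proteins were not used here, and 1 group of the wider list is not reported here on its own. Alternatives were quantile normalization, median-of-ratios scaling, a pseudocount of 0.1, filters of 0.1 FPKM and none, a replicate block, library weights and each library left out; leaving out the 3 libraries with adipocyte transcripts was added after seeing the data. Python 3.11.15 with pandas 2.3.3, numpy 2.4.6, scipy 1.17.1 and matplotlib 3.10.9 was used.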

Additional observations from a re-analysis of the deposited data

Results flagged for a closer look

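In each diet group of 4 libraries, a value was singled out when its gap to the nearest other library exceeded Dixon's 95% critical share of the whole range of the group. Of 76 groups examined 5 were singled out, where chance gives about 5%. C1qc was 19.53 FPKM in high Pi replicate 2 and 28.22 to 29.97 FPKM in the other 3 libraries of the diet. S100a8 was 0.5 FPKM in normal Pi replicate 1 and 0.95 to 1.0 FPKM in the other 3. Mrc1 was 0.42 FPKM in normal Pi replicate 4 against 0.22 to 0.25 FPKM, Trem2 was 0.21 FPKM in normal Pi replicate 3 against 0.15 FPKM in each of the others, and Ms4a1 was 0.15 FPKM in normal Pi replicate 2 against 0.07 to 0.08 FPKM. The last 3 genes were below the level for testing, where values rest on few fragments.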

How the results depend on the processing

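Over 15 named genes and 16 alternatives each, 219 of 240 values kept their direction and their side of the threshold, 8 reversed, 7 lost the call and 6 gained one. All 7 losses were of Arhgdib, the only named gene with a call to lose, which kept it in 9 of its 16 alternatives. The count of all genes past the threshold, 37, was 26 under quantile normalization, 27 under median-of-ratios scaling and 8 with no filter. It was 11 with the replicate block, 466 with library weights and 8 without the 3 libraries that held adipocyte transcripts. On leaving out each library it was 4 to 421, the last without high Pi replicate 1. The count of leukocyte genes past the threshold, 1, was 2 (Arhgdib and Fcgr3) under quantile normalization and under median-of-ratios scaling. It was 0 with no filter and 4 (Arhgdib, Cd79b, Fcer1g and Fcgr3) with library weights. Without the libraries that held adipocyte transcripts it was 0, and on leaving out each library it was 0 to 2. With fewer samples a call is harder to reach; the cause of the other shifts was not tested. The 4 genes with no overlap became 8 without the libraries that held adipocyte transcripts (7 higher and 1 lower, against 19.2% of all genes) and 4 to 16 on leaving out each library. The wider list had 2 calls with library weights and 0 to 2 on leaving out each library.

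Without the libraries that held adipocyte transcripts, Cd52 turned to -0.032, Fcgr2b to -0.020 and Cd3g to -0.028. On leaving out each library, Fcgr2b ranged from -0.023 to 0.11 (reversed in 3 fits, without normal Pi replicate 3 at -0.0084, high Pi replicate 2 at -0.023 or high Pi replicate 3 at -0.021) and Cd3g from -0.035 to 0.12 (reversed in 2, without normal Pi replicate 3 at -0.035 or high Pi replicate 3 at -0.0046). The labels give both diets the numbers 1 to 4, but deviations of same-numbered libraries correlated at -0.209, -0.011, 0.061 and -0.121, so the numbers were not taken as pairs; with the replicate block 1 leukocyte gene, Arhgdib, passed. A pseudocount of 0.1 moved Cd53 to 0.57, Cd79b to 0.60 and S100a8 to -0.74 on the log2 scale. Depth limits the lymphocyte and neutrophil genes, whose counting errors reached 49.7% for S100a8 and 36.7% for Cd3g among those tested.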
